A study of Mus musculus with 12 samples.

Results

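The redox defence genes followed here are 10 genes of the antioxidant programme: *Nfe2l2*, *Nqo1*, *Hmox1*, *Gclc*, *Gclm*, *Txnrd1*, *Sod2*, *Cat*, *Gpx4* and *Prdx3*. Their chromatin was read from trimethylation of histone H3 at lysine 4 (H3K4me3), a histone mark profiled with ChIP–seq (immunoprecipitation of chromatin followed by sequencing) in nuclei of cardiomyocytes (CMs), the contracting cells of heart muscle, from adult mice. Members were all peaks that carry one of these gene names, which gave 11 of the 15848 peaks of the series, from 9 of the 10 genes; no peak carries the name *Txnrd1*. CtrlCre mice carry the Cre recombinase under the αMHC promoter, which is active in CMs, and intact *Cpt1b* (αMHC-Cre pos/+; Cpt1b +/+). Cpt1bcKO mice carry the same transgene and a floxed *Cpt1b* (αMHC-Cre pos/+; Cpt1b fl/fl), which was inactivated in CMs before birth, so both genotypes share the Cre allele. *Cpt1b* encodes the muscle carnitine palmitoyltransferase, through which long-chain fatty acids enter mitochondria to be oxidized. Nuclei came from ventricles and were sorted for PCM1, a protein at the surface of CM nuclei, and each genotype had 3 H3K4me3 libraries; age beyond adult, and sex, are not given in the sources used here. The study describes its replicates as mice, but the labels do not tie a library to an animal, so the p-values measure the spread between these libraries.

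NRF2, the product of *Nfe2l2*, is a transcription factor that is held in the cytoplasm by KEAP1 and degraded. Oxidants and electrophiles release it, and it then pairs with small MAF proteins on antioxidant response elements and raises glutathione synthesis, thioredoxin reduction, quinone reduction and haem breakdown. Heart muscle burns mostly fatty acids, its mitochondria release superoxide and hydrogen peroxide as they do so, and superoxide dismutase, catalase, glutathione peroxidases and peroxiredoxins remove them. The study detected no change of reactive oxygen species in hearts without *Cpt1b*, so a changed oxidant load is not assumed here. H3K4me3 marks the promoters of active genes, and the question at these genes was whether the mark on the redox defence differed once CMs could not oxidize fatty acids.

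None of the member peaks passed the test between genotypes, which 2.93% of all tested peaks did. *Gpx4*, *Cat* and the start of *Gclc* lay higher in Cpt1bcKO by 1.23-fold to 1.31-fold, short of the threshold after adjustment. *Nqo1* was the only member start with 3 Cpt1bcKO values all below the 3 CtrlCre values, as at 8.46% of all tested peaks. *Gpx4* was the only one with all above, as at 7.8%. *Nfe2l2* itself, *Gclm*, *Sod2* and *Prdx3* differed by less than 1.07-fold. Of 86 genes of the wider pathway, 3 passed the test, beside 2.22% of the main peaks of all named genes: H3K4me3 was higher at *Mafk* and *Por* and lower at *Gpx7*. The summed value of 3 mural cell markers was lower in Cpt1bcKO too, with 1 of these markers passing the test. All 3 calls of the wider pathway were lost without CtrlCre replicate 1 and without Cpt1bcKO replicate 3.

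The study produced the count of a library in a peak with the program bigWigAverageOverBed, and whether 1 count is 1 read is not given. Every value is a normalized count per peak: such a count, divided by a factor that sets the libraries to 1 depth, and rounded by the authors. Because of this scaling a gain or loss shared by all peaks is not visible, and each difference is relative to the bulk of peaks. The study reported less H3K4me3 by Western blot in sorted CM nuclei of Cpt1bcKO mice. A higher or equal value here is therefore not a statement about the absolute level. In nuclei processed together, fewer nuclei with the mark and less of it per nucleus cannot be told apart. Differences are of log2(value + 1), Cpt1bcKO minus CtrlCre, with the standard error (SE) from limma. Adjusted p-values are Benjamini–Hochberg values over all 15039 peaks with a mean of at least 10. The libraries held between 763133 and 2766416 counts in peaks, with CtrlCre replicate 2 the shallowest, and they correlated with r from 0.914 to 0.967 across peaks. All 8 CM markers searched had a peak, with a summed value of 7424, 6826 and 8196 in CtrlCre and 6625, 7701 and 5330 in Cpt1bcKO, lowest in Cpt1bcKO replicate 3, whereas 1 of 6 endothelial, 1 of 6 fibroblast and 0 of 5 macrophage and leukocyte markers did. The endothelial peak had 39, 91 and 64 in CtrlCre and 31, 45 and 51 in Cpt1bcKO, and the fibroblast peak 69, 58 and 68 and 59, 56 and 63. Mural cell markers had peaks for 3 of 6 genes, and their summed value was lower in Cpt1bcKO (32 to 80) than in CtrlCre (140 to 217). Of these 3, only *Acta2* passed the test, lower at an adjusted p of 7.36e-05 (limma). The *Cpt1b* peak covers exons 1 to 9 and the floxed exons are 10 to 11, so it does not check the deletion; its values were 428, 407 and 436 in CtrlCre and 572, 689 and 568 in Cpt1bcKO.

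Start peaks of the member genes lay around the annotated transcription start sites, and their extents in mm10 (GRCm38) are plotted relative to those sites. Read in the direction of transcription, the *Nfe2l2* peak ran from 922 bases before the start to 2676 bases after it. The *Cat* peak ran furthest into its gene, from 730 bases before to 5625 bases after the start, and 85.6% of it lay in introns. The *Gpx4* peak began 130 bases after the first annotated start and lay wholly inside the gene, over 4 annotated transcript starts further in. *Gclc* and *Hmox1* each had a second peak upstream, which overlapped no annotated gene: 4792 to 3014 bases before the start of *Gclc*, and 4311 to 3905 bases before that of *Hmox1*.

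**Figure D1:**
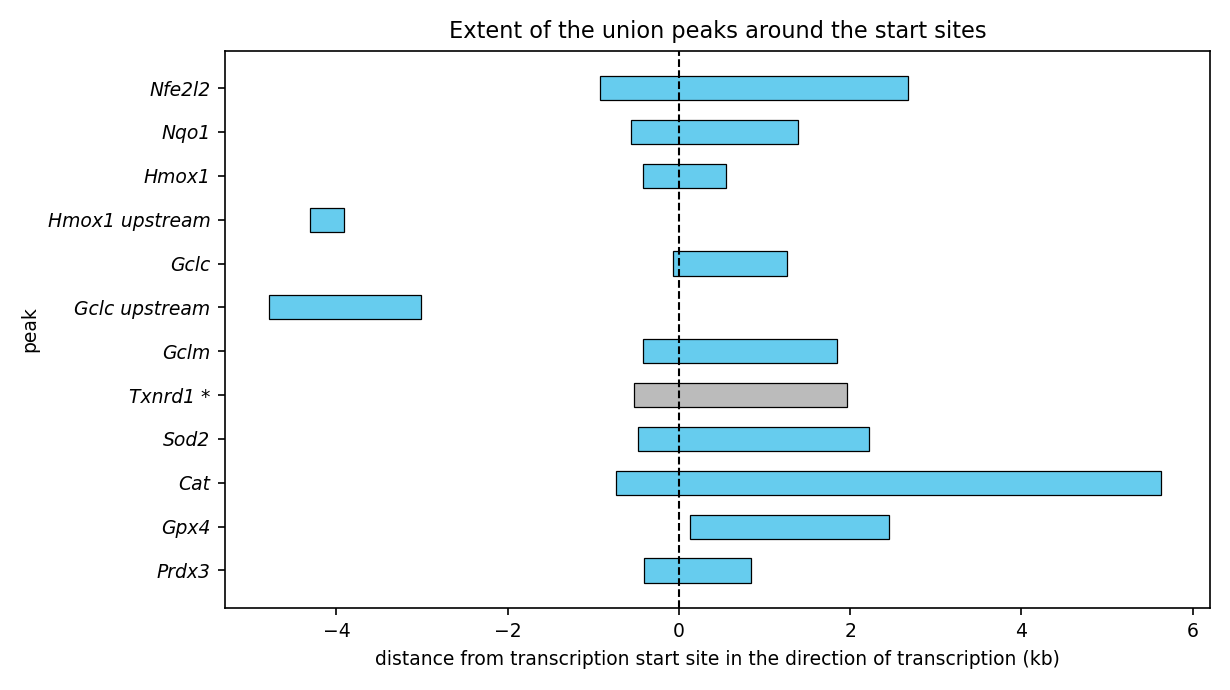
Extent of each union peak (horizontal bars) along the distance from the transcription start site in kilobases, with the start as a dashed line and transcription running to the right. Blue bars are peaks found by gene name and the grey bar (asterisk) is the peak over the *Txnrd1* start, which has no gene name in the table; the *Cat* bar reaches 5625 bases into the gene, and the upstream peaks of *Gclc* and *Hmox1* stand apart from the start.

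Promoter windows of RefSeq (GRCm38.p6 coordinates, 250 bases before to 50 after a start) were matched by symbol for 8 of the 10 genes and not for *Hmox1* and *Gclc*. They were searched on both strands for the core of the antioxidant response element, TGACNNNGC, the letters that NRF2 and small MAF proteins recognize. A match lay in 12.4% of all 32851 windows of this length, and these shares take in windows outside any peak. A gene was counted if any of its windows in the peak held a match. Counts of genes, here and below, are therefore not on the same scale as shares of windows. Of the 8 genes, 3 had a match: *Nfe2l2*, *Gclm* and *Txnrd1*. Of 71 genes of the wider list with a window in their peak, 16 had one, *Mafk* among them, while *Por* and *Gpx7*, the other genes called there, had none in their windows. The stretches below show these matches and that of *Mafk*, a small MAF gene of the wider pathway, all before the start and read 5′ to 3′ on the strand of the gene, with the match in capitals.
Nfe2l2, chr2:75704854-75704913, minus strand: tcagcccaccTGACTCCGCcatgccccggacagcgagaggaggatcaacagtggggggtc
Gclm, chr3:122245397-122245456, plus strand: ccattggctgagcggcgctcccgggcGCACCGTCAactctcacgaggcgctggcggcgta
Txnrd1, chr10:82859088-82859147, plus strand: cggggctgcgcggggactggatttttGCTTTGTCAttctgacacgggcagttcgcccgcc
Mafk, chr5:139791476-139791535, plus strand: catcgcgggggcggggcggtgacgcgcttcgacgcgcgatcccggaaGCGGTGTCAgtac
In *Nfe2l2* the core is read on the strand of the gene, and in the other 3 on the opposite strand. The first base of the match is 240 bases before the start in *Nfe2l2*, 134 in *Gclm*, 92 in *Txnrd1* and 13 in *Mafk*. A match says that the letters are there, not that a factor was bound, and elements outside this window were not searched. The related AP-1 letters TGACTCA, which can overlap the core, lay in 5.20% of windows and in none of the 8 genes.

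The members' promoters ranged from rich to poor in CpG dinucleotides, shown here for the extremes in the 120 bases before the start, with each CG in capitals.
Gclm, chr3:122245437-122245556, plus strand: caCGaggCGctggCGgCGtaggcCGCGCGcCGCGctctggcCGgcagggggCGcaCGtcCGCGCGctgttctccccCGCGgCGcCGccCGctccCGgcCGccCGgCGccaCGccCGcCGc
Nqo1, chr8:107403206-107403325, minus strand: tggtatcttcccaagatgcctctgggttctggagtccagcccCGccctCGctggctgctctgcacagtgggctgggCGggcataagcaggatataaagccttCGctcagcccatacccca
The *Gclm* stretch holds 27 CpG and the *Nqo1* stretch 4. Over the whole window *Gclm* had 48 CpG, more than 98.8% of all windows, and *Nqo1* 5, more than 38.0%, against a median of 7. The other members lay between, with 27 in *Txnrd1*, 26 in *Gpx4*, 21 in *Sod2*, 18 in *Nfe2l2*, 15 in *Prdx3* and 11 in *Cat*. CCAAT boxes, a search added after the sequences were seen, lay in 37.4% of all windows and in those of 5 of the 8 genes and 35 of the 71 wider genes. The 5 were *Gpx4*, *Cat*, *Txnrd1*, *Sod2* and *Gclm*, with log2 differences of 0.39, 0.37, 0.15, 0.06 and 0.003. *Nfe2l2* (0.08), *Prdx3* (0.06) and *Nqo1* (−0.30) had no match, and a link between match and difference was not tested. *Cat* had 4 matches in its window, of which 3 stand in the 120 bases before the start, in capitals.
Cat, chr2:103485154-103485273, minus strand: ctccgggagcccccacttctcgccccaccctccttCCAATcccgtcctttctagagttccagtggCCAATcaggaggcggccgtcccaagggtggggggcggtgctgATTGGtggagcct

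The regulator comes first. *Nfe2l2* (ENSMUSG00000015839, chr2:75701965-75705563), which encodes NRF2, had 300, 316 and 331 in CtrlCre and 314, 359 and 332 in Cpt1bcKO. The genotypes overlapped, with the highest value in Cpt1bcKO replicate 2. The means were 316 ± 15.5 and 335 ± 22.6 (SD, n = 3 each), a log2 difference of 0.08 (SE 0.10; 95% confidence interval −0.11 to 0.28; limma, adjusted p = 0.800). The interval spans a 0.925-fold to a 1.22-fold level. The peak also covers the start of *E030042O20Rik*, an annotated neighbour, and the reads of the 2 starts cannot be separated.

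Next come the genes of glutathione synthesis. *Gclc* and *Gclm* encode the catalytic and modifier subunits of glutamate–cysteine ligase, the enzyme that makes the first bond of glutathione. At the start peak of *Gclc* (ENSMUSG00000032350, chr9:77754472-77755800), CtrlCre gave 101, 98 and 77 and Cpt1bcKO 115, 101 and 124. The values overlapped only through a tie at 101, and CtrlCre replicate 3 was the lowest. The log2 difference was 0.30 (SE 0.14; 0.006 to 0.60), with an unadjusted p of 0.0459 and an adjusted p of 0.375 by limma. Without CtrlCre replicate 3 it was 0.18 (adjusted p = 0.670, limma). The upstream peak (chr9:77749743-77751521) had 157, 139 and 174 in CtrlCre and 141, 149 and 115 in Cpt1bcKO. It leaned the other way, with overlapping genotypes and a log2 difference of −0.22 (SE 0.12; −0.47 to 0.04; adjusted p = 0.502, limma).

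The 2 *Gclc* peaks are separated by 2951 bases, and their balance can be read within each library, where depth cancels. As the log2 ratio of the upstream to the start peak it was 0.63, 0.50 and 1.17 in CtrlCre and 0.29, 0.56 and −0.11 in Cpt1bcKO. The means were 0.77 ± 0.35 and 0.25 ± 0.33 (SD, n = 3 each), a difference of −0.52, and the genotypes overlapped through CtrlCre replicate 2 and Cpt1bcKO replicate 2. A two-sided exact permutation test gave p = 0.2, where 3 against 3 libraries cannot go below 0.1. The test could therefore not reach 0.05 and does not decide whether the balance differed between genotypes. The ratio is built from the same values as the log2 differences of the 2 peaks and is no separate support for them.

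*Gclm* (ENSMUSG00000028124, chr3:122245141-122247409) had 115, 137 and 148 in CtrlCre and 135, 127 and 137 in Cpt1bcKO. Its genotype means were 133 ± 16.8 and 133 ± 5.29, and the interval of the log2 difference ran from −0.25 to 0.26. So a change of more than 1.19-fold in either direction lies outside that interval, and no difference was detectable at this depth.

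The other NRF2 targets are enzymes of quinone, haem and thioredoxin metabolism. *Nqo1* (ENSMUSG00000003849, chr8:107401817-107403767), a quinone reductase, had 70, 70 and 85 in CtrlCre and 59, 59 and 64 in Cpt1bcKO. All 3 Cpt1bcKO values lay below all CtrlCre values, at means of 75 ± 8.66 and 60.7 ± 2.89. The log2 difference was −0.30 (SE 0.17; −0.65 to 0.06; unadjusted p = 0.0951, adjusted p = 0.498, limma). *Hmox1* (ENSMUSG00000005413, chr8:75093208-75094171), the inducible haem oxygenase, had 49, 51 and 58 in CtrlCre. In Cpt1bcKO it had 47, 67 and 78, so that replicate 1 was the lowest of all 6 libraries and replicates 2 and 3 the highest. Its log2 difference of 0.25 had the widest interval of the member peaks (SE 0.21; −0.18 to 0.68; adjusted p = 0.697, limma). The upstream *Hmox1* peak (chr8:75089310-75089716) reached 3, 9 and 7 in CtrlCre and 6, 15 and 6 in Cpt1bcKO, from 4 to 23 counts, and was too low to test.

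*Txnrd1* encodes the cytosolic thioredoxin reductase. A peak over its start (chr10:82858654-82861145) was assigned in the table to a gene without a name, and it also covers the start of *Gm38560*, so it is not among the 11 peaks. It had 209, 188 and 217 in CtrlCre and 249, 205 and 228 in Cpt1bcKO. The genotypes overlapped, and the log2 difference was 0.15 (SE 0.10; −0.07 to 0.37; adjusted p = 0.618, limma).

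Enzymes that remove superoxide and hydrogen peroxide follow. *Sod2* (ENSMUSG00000006818, chr17:13007357-13010065), the mitochondrial superoxide dismutase, had 273, 232 and 256 in CtrlCre and 262, 285 and 248 in Cpt1bcKO. The libraries of both genotypes were interleaved, with a log2 difference of 0.06 (SE 0.10; −0.14 to 0.27; adjusted p = 0.867, limma). *Cat* (ENSMUSG00000027187, chr2:103479535-103485890), which encodes catalase, the peroxide-splitting enzyme of peroxisomes, had 262, 267 and 314 in CtrlCre and 298, 422 and 378 in Cpt1bcKO. Replicates 2 and 3 of Cpt1bcKO stood above all CtrlCre libraries, while replicate 1 lay below CtrlCre replicate 3. The means were 281 ± 28.7 and 366 ± 62.9 (SD, n = 3 each), 1.29-fold apart on the log2(value + 1) scale (95% confidence interval 1.09 to 1.53). The log2 difference of 0.37 (SE 0.12) had an unadjusted p of 0.00406 and an adjusted p of 0.0986 by limma. Without Cpt1bcKO replicate 1 it was 0.51 and passed at an adjusted p of 0.0282, and without Cpt1bcKO replicate 2 it was 0.26 at an adjusted p of 0.401.

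Peroxidases that draw on glutathione and thioredoxin complete the set. *Gpx4* (ENSMUSG00000075706, chr10:80053618-80055944), the glutathione peroxidase that reduces lipid hydroperoxides in membranes, had 154, 139 and 147 in CtrlCre and 177, 192 and 209 in Cpt1bcKO. Every Cpt1bcKO value lay above every CtrlCre value, at means of 147 ± 7.51 and 193 ± 16 (SD, n = 3 each). The difference was 1.31-fold (95% confidence interval 1.12 to 1.53), or 0.39 on the log2 scale (SE 0.11), with an unadjusted p of 0.00152 and an adjusted p of 0.0512 by limma. *Gpx4* passed when only peaks with a mean of at least 50 were tested (adjusted p = 0.0438) and with a pseudocount of 5 (0.0470), and with 1 library left out its adjusted p ranged from 0.0727 to 0.256. *Prdx3* (ENSMUSG00000024997, chr19:60873715-60874963), the mitochondrial peroxiredoxin, had 88, 74 and 87 in CtrlCre and 88, 81 and 90 in Cpt1bcKO. Its genotypes overlapped, with a log2 difference of 0.06 (SE 0.15; −0.25 to 0.37; adjusted p = 0.931, limma).

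**Figure D2:**
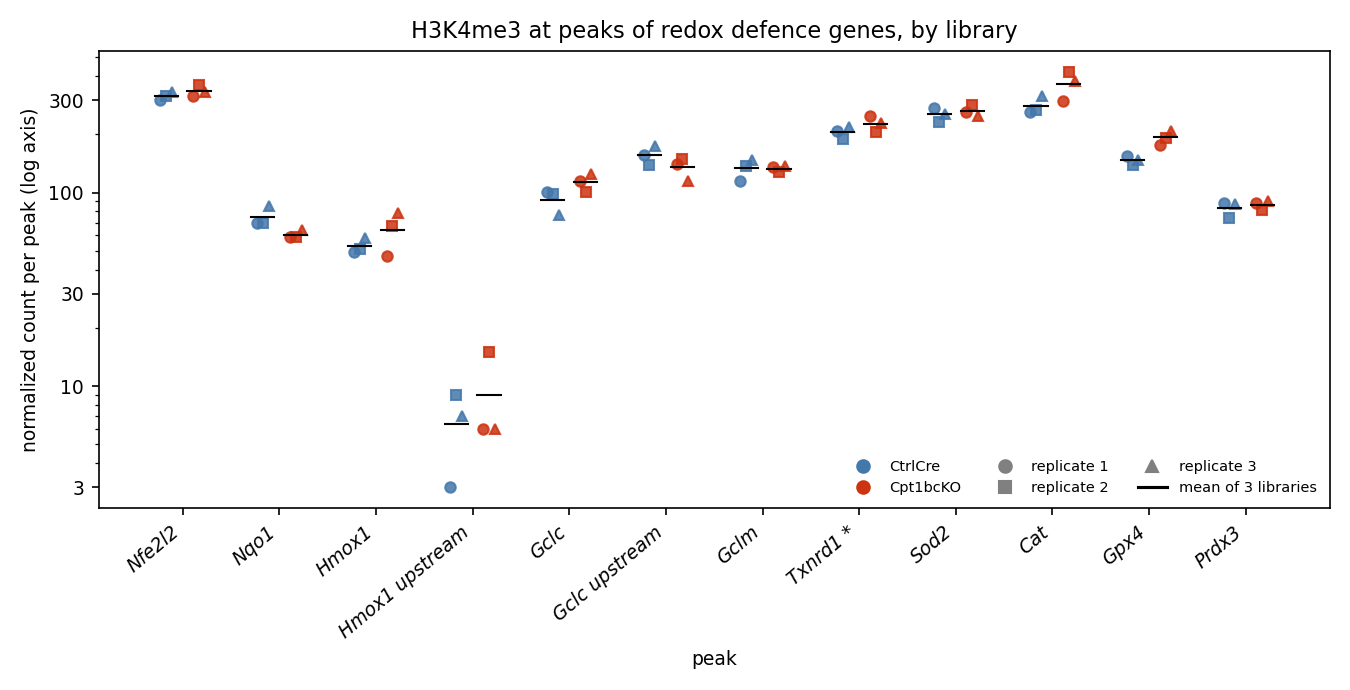
Normalized count per peak in each library (logarithmic vertical axis) for the 11 peaks found by name and the *Txnrd1* start peak (asterisk). Blue is CtrlCre, red is Cpt1bcKO, symbol shape is the replicate number and black bars are genotype means; the genotypes are apart at *Gpx4* (139 to 154 against 177 to 209) and *Nqo1* (70 to 85 against 59 to 64) and overlap elsewhere.

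Counted together, 10 of the 11 peaks were tested and 0 passed an adjusted p under 0.05 by limma, where 2.93% of all tested peaks did (441 peaks; 1.11% higher and 1.82% lower in Cpt1bcKO). At an unadjusted p under 0.05 there were 3, all higher in Cpt1bcKO: *Gpx4*, *Cat* and *Gclc*; the share over all tested peaks was 5.84% in that direction and 6.98% in the other. Genotypes did not overlap at 2 of the 10, higher at *Gpx4* and lower at *Nqo1*, beside 16.3% of all tested peaks (7.8% higher and 8.46% lower). The difference was positive at 8 and negative at 2, beside 51.2% positive over all tested peaks, and its median was 0.07 against 0.006 over all.

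The lean was not even over libraries. Of the 10 peaks, 4, 2 and 6 lay above their own mean over the 6 libraries in CtrlCre replicates 1 to 3, and 5, 6 and 7 in Cpt1bcKO replicates 1 to 3. CtrlCre replicate 2, the shallowest library, had the lowest median deviation from those means (−0.11 on the log2 scale) and Cpt1bcKO replicate 2, the deepest, the highest (0.09). Over all tested peaks the same medians were between 0.005 and 0.008 in every library. Whether depth takes part in this was not tested. Between 22 and 649 counts stood behind each value at the 10 peaks. If each count is taken as 1 independent read, counting error alone was between 3.93% and 21.3% of a value.

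**Figure D3:**
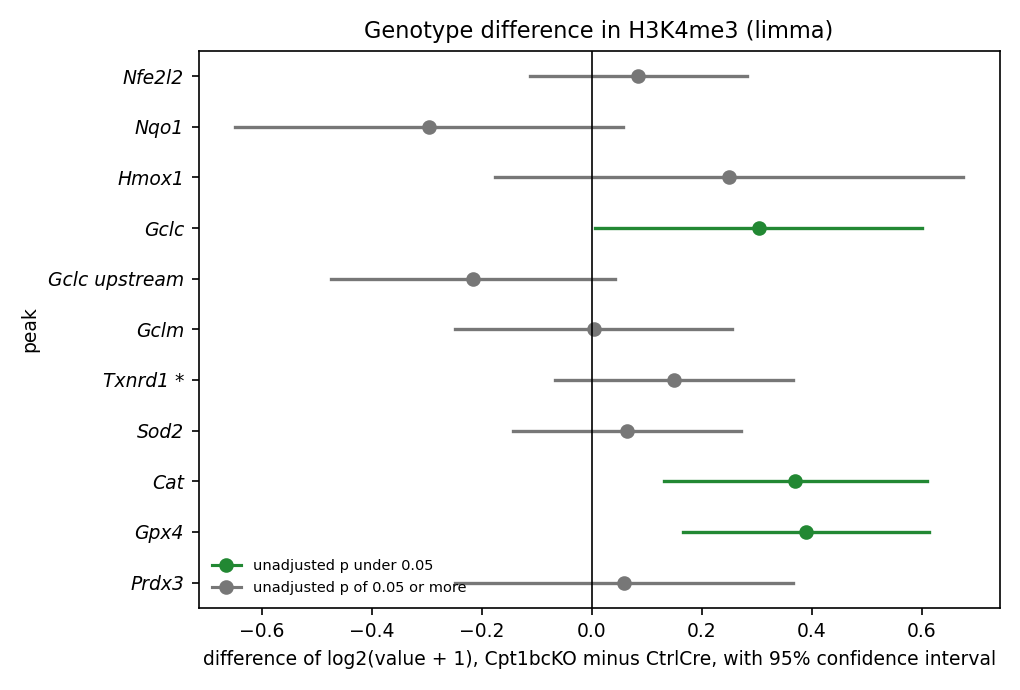
Difference of log2(value + 1) between genotypes for each tested member peak and the *Txnrd1* start peak (asterisk), Cpt1bcKO minus CtrlCre, with the 95% confidence interval from limma as a line and 0 as a vertical line. Green marks an unadjusted p under 0.05 (*Gpx4*, *Cat* and the *Gclc* start), grey the others; *Nqo1* and the upstream *Gclc* peak lie left of 0, and *Gclm* sits on it.

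Peaks of unequal width were compared per kilobase, as means over the 6 libraries of both genotypes. *Sod2* had the highest level, 95.8 normalized counts per kilobase, followed by *Nfe2l2* with 90.4 and, for its unnamed start peak, *Txnrd1* with 86.7. The 2 *Gclc* peaks followed with 82.0 upstream and 77.3 at the start, then *Gpx4* with 72.9, *Prdx3* with 67.8, *Hmox1* with 60.6, *Gclm* with 58.7 and *Cat* with 50.9. The order was not the same within each genotype. In CtrlCre the upstream *Gclc* peak (88.1) stood beside *Nfe2l2* (87.7) and the *Gclc* start lay at 69.3, whereas in Cpt1bcKO the *Gclc* start (85.3) and *Gpx4* (82.8) stood above the upstream *Gclc* peak (75.9). *Nqo1* was the lowest start at 34.8, higher than only 24.6% of tested peaks, and the upstream *Hmox1* peak had 18.9. Each neighbouring pair in this order overlapped in its range over the 6 libraries, so only more distant members were apart: *Sod2* ranged from 85.7 to 105 and *Nqo1* from 30.3 to 43.6.

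Width ordered the members differently from level. Broad peaks, those above the 75th percentile of width (2222 bases), were *Cat* (6355 bases), *Nfe2l2* (3598), *Sod2* (2708), *Gpx4* (2326) and *Gclm* (2268), with the *Txnrd1* start peak (2491) also broad. *Cat* was wider than 98.3% of tested peaks but spread its signal thinly, with a level per kilobase in the 40.8th percentile. *Hmox1*, at 963 bases, was narrow, under the 25th percentile of 1030 bases. The median width of the 10 tested members was 2109 bases, beside 1514 for all tested peaks and 1655 for the main peaks of all named genes. Their median level was 70.4 normalized counts per kilobase, beside 60.5 for all tested peaks. The main peaks of all named genes also had 70.4, so the level of the members was that of named genes at large.

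**Figure D4:**
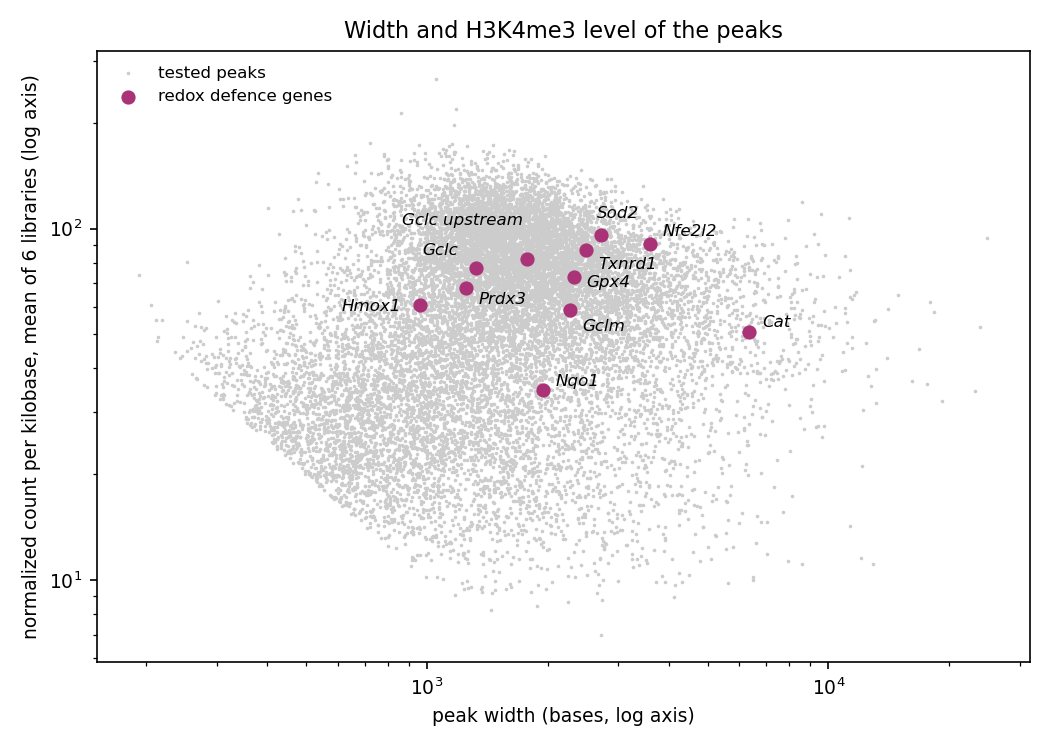
Width in bases (horizontal) and level in normalized counts per kilobase averaged over 6 libraries (vertical), both on logarithmic axes, for all tested peaks (grey) and the peaks of the redox defence genes (purple). *Cat* lies far to the right at 6355 bases, *Nqo1* lowest at 34.8 normalized counts per kilobase, and *Sod2* and *Nfe2l2* are both wide and high.

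A wider list of 99 redox genes, the 10 included, set these values among their pathway, with the highest peak of each gene standing for it. For *Gclc* that is the upstream peak (log2 difference −0.22) and not the start peak (0.30), which sets its sign and keeps it from the counts at an unadjusted p. A tested peak was found by name for 86 genes. By limma, 3 passed an adjusted p under 0.05, beside 2.22% of the main peaks of all named genes (0.967% higher and 1.26% lower). *Mafk*, a small MAF partner of NRF2, rose from 213, 228 and 268 to 305, 339 and 317 (log2 difference 0.44, SE 0.10, adjusted p = 0.0159, limma). *Por*, the reductase that feeds electrons from NADPH to cytochromes P450 and to haem oxygenase, rose from 104, 95 and 120 to 155, 145 and 139 (0.46, SE 0.12, adjusted p = 0.0425, limma). *Gpx7*, a peroxidase of the endoplasmic reticulum, fell from 66, 63 and 80 to 42, 42 and 31 (−0.85, SE 0.21, adjusted p = 0.0236, limma).

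Over the 86 genes the genotypes did not overlap at 10 higher and 5 lower in Cpt1bcKO, beside 8.39% higher and 6.78% lower among the main peaks of all named genes. The 3 called genes were among these, which is no separate support, since the calls came from the same values. With 1 library left out the log2 difference stayed between 0.37 and 0.54 at *Mafk*, between −0.92 and −0.71 at *Gpx7* and between 0.38 and 0.55 at *Por*. The calls depended on single libraries, and the values in parentheses are adjusted p-values from limma. *Mafk* lost its call without CtrlCre replicate 1 (0.137), Cpt1bcKO replicate 2 (0.0849) or Cpt1bcKO replicate 3 (0.0614). *Gpx7* lost its call without CtrlCre replicate 1 (0.0889), CtrlCre replicate 3 (0.138) or Cpt1bcKO replicate 3 (0.108). *Por* kept its call only without CtrlCre replicate 3 (0.0287) and lost it without any of the other 5 libraries (0.0962 to 0.213), and it also lost it with a replicate block (0.0685), with quantile normalization (0.0613) and with limma-voom on counts (0.0720).

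Below the threshold, 16 genes including the called ones had an unadjusted p under 0.05, 12 higher and 4 lower in Cpt1bcKO, beside 6.03% higher and 5.29% lower among the main peaks of all named genes. Next to *Gpx4* and *Cat*, those with the smallest p among them included *Ftl1*, the ferritin light chain that stores iron, with 196, 256 and 249 against 301, 334 and 269 (log2 difference 0.37; adjusted p = 0.0840, limma). *Ftl1* passed with limma-voom (adjusted p = 0.0488) and without CtrlCre replicate 2 (0.0326), and was at 0.25 without CtrlCre replicate 1 (adjusted p = 0.417, limma). *Aox1*, an aldehyde oxidase, had 79, 49 and 103 against 102, 130 and 115 (0.64; adjusted p = 0.0843, limma). Without the low CtrlCre replicate 2 the *Aox1* difference was 0.35 (adjusted p = 0.313), and without CtrlCre replicate 3 it was 0.88 and passed (adjusted p = 0.0123, limma). *Tkt*, the transketolase of the pentose phosphate pathway, had a difference of 0.35 (adjusted p = 0.110), and *Glrx5*, a mitochondrial glutaredoxin, 0.25 (adjusted p = 0.226, limma). *Maff*, a second small MAF gene, had 0.36 (adjusted p = 0.228) and *Nfe2l1*, the paralogue of *Nfe2l2*, 0.24 (adjusted p = 0.255, limma).

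Lower in Cpt1bcKO, beside *Gpx7*, were *Cyba*, *Txnip* and *Idh2*. *Idh2*, an NADPH-supplying enzyme, had 292, 300 and 347 in CtrlCre and 294, 266 and 250 in Cpt1bcKO (−0.21, unadjusted p = 0.0480, adjusted p = 0.382, limma). *Cyba*, the membrane subunit shared by NADPH oxidases, had 61, 49 and 51 in CtrlCre and 34, 34 and 14 in Cpt1bcKO (−1.04, SE 0.30, adjusted p = 0.0576, limma). It passed with limma-voom (adjusted p = 0.0247) and median centring (0.0494, limma), and without Cpt1bcKO replicate 3 it was −0.64 (adjusted p = 0.257, limma). *Txnip*, the inhibitor of thioredoxin, had 704, 725 and 646 against 586, 663 and 438, with replicate 3 of Cpt1bcKO, the library with the lowest sum of CM markers, far below the rest (−0.32, adjusted p = 0.228, limma). Without that library the difference was −0.15 (adjusted p = 0.658, limma), and the part of the CM markers in it was not tested. *Gpx7* and *Cyba* moved in the direction of the mural markers, whose summed value was 174, 217 and 140 in CtrlCre and 80, 32 and 77 in Cpt1bcKO. The libraries did not run in parallel: within Cpt1bcKO the mural sum was lowest in replicate 2, *Gpx7* and *Cyba* in replicate 3. Endothelial, fibroblast and CM values also leaned lower, with overlapping genotypes. Only *Acta2* of the mural markers was called, and the part of mural cells in the *Gpx7* and *Cyba* differences was not tested. The peaks of *Ftl1*, *Glrx5*, *Cyba*, *Txnip* and *Idh2* also overlap other annotated genes (*Gys1*, *Snhg10*, *Gm20388*, *Gm15441* and *Gm45203* among them), whose reads cannot be separated.

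The NRF2 control group of 12 genes holds *Nfe2l2* itself, its paralogue and its small MAF partners beside its regulators. In it 10 were positive and 2 negative, beside 55.1% positive for the main peaks of all named genes. Called higher was 1 (*Mafk*), and 4 including it were higher at an unadjusted p under 0.05. The shares among those main peaks were 0.967% and 6.03%. The median log2 difference was 0.14, beside 0.02 for those main peaks. *Keap1*, which holds NRF2 in the cytoplasm, differed by 0.03 (adjusted p = 0.956, limma) and *Bach1*, the repressor that competes for the same elements, by 0.27 (adjusted p = 0.447, limma). *Sqstm1*, an autophagy receptor that sequesters KEAP1, had 260, 244 and 278 against 310, 324 and 290 at its start (0.24; adjusted p = 0.258, limma). That peak also overlaps *Mgat4b*, whose reads cannot be separated. A second peak assigned to *Sqstm1*, with its centre 2394 bases from the start, had 30, 26 and 35 against 19, 19 and 11. Its difference had the opposite direction (−0.88, adjusted p = 0.223, limma), and which gene its reads belong to was not examined.

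The other roles ranged from an even split to a single direction. Glutathione genes split 12 positive to 11 negative with 1 called lower (*Gpx7*), thioredoxin and peroxiredoxin genes 11 to 5 with none called, and NADPH-supplying genes 7 to 4 with none called. Quinone, haem and iron genes split 13 to 3 with 1 called higher (*Por*). All 4 tested genes of superoxide and hydrogen peroxide removal were positive, among them *Sod1* at 0.18 (adjusted p = 0.486, limma) beside *Cat* and *Sod2*, with none called. Of the 4 tested oxidant sources, 2 were positive and 2 negative. Over the 86 genes, 59 were positive and 27 negative, beside 55.1% positive for the main peaks of all named genes, and the median was 0.07.

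**Figure D5:**
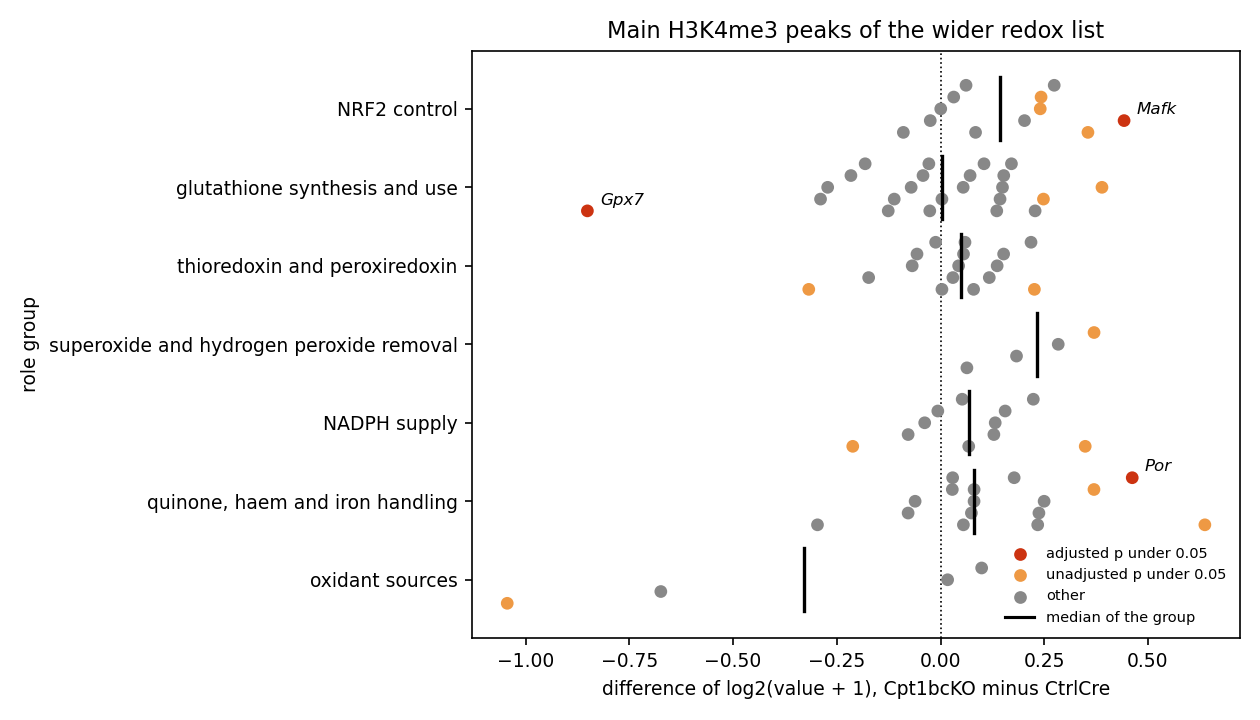
Difference of log2(value + 1), Cpt1bcKO minus CtrlCre, for the main peak of each of the 86 redox genes (points, spread vertically for visibility) in 7 role groups, with the median of each group as a black bar. Red marks an adjusted p under 0.05 (*Mafk*, *Gpx7* and *Por*), orange an unadjusted p under 0.05 and grey the others; the NRF2 control group has a median of 0.14 and the glutathione group one near 0 (0.003).

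Genes without a peak of their own name numbered 13 on that list. A peak with another name or none lay over an annotated start of 7 of these, among them *Txnrd1*, *Txn1*, *Prdx2*, *Prdx5* and *Nnt*. None of the 7 peaks passed the test by limma. *Nnt*, the mitochondrial transhydrogenase that makes NADPH, had the largest difference, −0.15, with an adjusted p of 0.651 (limma).

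The library pattern of *Nfe2l2* was most like those of *Ascc2* (Pearson r = 0.989), *Ddx51* (0.980) and *Lrrc24* (0.977) over the 6 libraries, among 9234 genes whose main peak had a mean of at least 50. This is a description over 6 points that share their scaling, and the 3 genes were picked as the highest of all those searched. *Ascc2* had 89, 95 and 105 in CtrlCre and 93, 118 and 106 in Cpt1bcKO, again with the highest value in Cpt1bcKO replicate 2.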

How the data were processed

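H3K4me3 ChIP–seq was analysed in 3 CtrlCre and 3 Cpt1bcKO libraries; 6 input libraries have no column in the table. Per the submitters' notes and the study's methods, reads were trimmed (Trimmomatic 0.39), aligned to mm10 (STAR 2.6.1d) and de-duplicated (Picard 2.21.7), and MUSIC called peaks in each library over its input (false discovery rate 0.2), which were merged. The deposited values per library are DESeq2 (1.26.0) size-factor-normalized counts rounded by the authors, treated as a score. The authors also deposited unrounded genotype means (a mean signal) and the fraction of each peak in the gene body. The table's log2 fold changes and p-values, raw and adjusted, are the authors' own comparison and were not used. Peaks took the nearest promoter within 5000 bases. Coordinates are as deposited; whether starts count from 0 or 1 is not given in the sources used here.

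The main test was limma 3.58.1 (R 4.3.3; lmFit, eBayes with trend, two-sided) on log2(value + 1), with genotype alone, at a mean of at least 10 (15039 peaks tested, 809 not). Because the values are normalized, no count model was the main test. Whole counts were recovered from the rounded values and the genotype means, with 1 solution at 15848 of 15848 peaks (largest gap 1.30e-06), for depth and a limma-voom alternative. The fits were tested on simulated data. Replicate numbers did not pair the libraries (correlations of deviations 0.076, −0.081 and 0.11). Starts and introns come from GENCODE vM21 on the same build, promoters from RefSeq. Every peak of a member was named. From the wider list, each called gene and the 10 others of smallest p (unadjusted, under 0.05) were named. *Keap1*, *Bach1*, *Sqstm1*, *Sod1*, *Idh2*, *Txn1*, *Prdx2*, *Prdx5* and *Nnt* were named after their values were seen. The members and lists were chosen with earlier results of these data known.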

Additional observations from a re-analysis of the deposited data

How the results depend on the processing

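Alternatives were pseudocounts of 0.5 and 5, no filter or a mean of at least 50, quantile normalization, median centring, limma-voom on recovered counts, a replicate block, each library left out in turn, and an unadjusted p under 0.05. Over all peaks, the 441 calls became 229 to 431 with 1 library left out (229 without CtrlCre replicate 1, 246 without Cpt1bcKO replicate 3, 288 without Cpt1bcKO replicate 2), 338 to 503 otherwise, and 1929 at an unadjusted p. The 0 calls among member peaks became 0 to 1 with 1 library left out, 1 with a mean of at least 50 and with a pseudocount of 5, and 3 at an unadjusted p. The 3 calls of the wider list became 0 to 3 with 1 library left out, 2 to 4 otherwise and 16 at an unadjusted p; there were 4 with limma-voom (*Cyba* and *Ftl1* gained, *Por* lost), with a mean of at least 50 and with a pseudocount of 5 (*Gpx4* gained both times), and with median centring (*Cyba* gained). With the replicate block there were 370 calls over all peaks, 0 among members and 2 in the wider list, where *Por* was lost. Whether same-numbered libraries share more than the number is not given in the labels. Differences near 0 turned sign: *Gclm* with median centring (−0.0059), with quantile normalization (−0.021) and with 1 library left out (−0.10 to 0.082; below 0 without CtrlCre replicate 1 or Cpt1bcKO replicates 1 or 3), and *Prdx3* with limma-voom (−0.0087) and with 1 library left out (−0.021 to 0.10; below 0 without CtrlCre replicate 2); the cause was not tested. The other members kept their direction under all alternatives run. Depth limits precision in CtrlCre replicate 2, where 1 count is worth 2.32 normalized counts, beside 0.65 to 1.13 elsewhere.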
